A study of Homo sapiens with 6 samples.

Results

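The poly-C binding proteins and hnRNP K form a small family of RNA-binding proteins. Their genes were followed here in K562 cells in which one of them, PCBP1, was overexpressed from an inducible cassette. The members were chosen by name: the protein-coding genes PCBP1, PCBP2, PCBP3, PCBP4 and HNRNPK, and PCBP1-AS1, a long noncoding RNA gene on the strand opposite PCBP1. They are 6 of the 62252 genes that could be named in the deposited files, and they hold 397 of the 251612 matched transcripts. K562 is an erythroleukemia cell line. The cells carried a Flag-PCBP1 cassette at the AAVS1 locus, placed there by cassette exchange in a single clone with a floxed landing site and then kept as a polyclonal line under puromycin. In 3 libraries the cells received no doxycycline (−Dox, the control) and in 3 they received doxycycline (+Dox, PCBP1 overexpression); both groups carry the cassette, so −Dox is not a line without it. No dose or time of doxycycline is given in the labels of these samples. The labels do not say whether the replicates came from separate cultures, and p-values then measure only the spread between these libraries.

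Poly-C binding proteins bind single-stranded, cytosine-rich stretches of RNA through KH domains, of which each carries several. They are known for stabilizing messages such as alpha-globin mRNA, for controlling translation and for choosing exons, and PCBP1 and PCBP2 also deliver iron to ferritin and to iron enzymes. PCBP1 is a gene without introns, whereas PCBP2 is spliced into many coding isoforms that differ by small exons between the second and the third KH domain. hnRNP K shares the KH fold and the preference for cytosine-rich RNA, and acts in transcription, splicing and translation.

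Printed here are 4 coding exons of PCBP2 and HNRNPK that some isoforms skip and whose inclusion is given below. Each sequence is in the sense of the gene, read from GRCh38, with the exon in capitals and 50 bases of intron on either side in lower case. The PCBP2 exons lie on the plus strand at chr12:53464760-53464852 (93 bases), chr12:53465932-53465973 (42 bases) and chr12:53467805-53467843 (39 bases), and the HNRNPK exon lies on the minus strand at chr9:83973902-83973973 (72 bases). All 4 are annotated as coding over their whole length, and each length is a multiple of 3.
PCBP2 exon of 93 bases: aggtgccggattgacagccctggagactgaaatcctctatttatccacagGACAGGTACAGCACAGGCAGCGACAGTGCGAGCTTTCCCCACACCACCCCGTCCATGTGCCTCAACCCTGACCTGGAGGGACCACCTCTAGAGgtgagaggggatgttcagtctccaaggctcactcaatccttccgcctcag
PCBP2 exon of 42 bases: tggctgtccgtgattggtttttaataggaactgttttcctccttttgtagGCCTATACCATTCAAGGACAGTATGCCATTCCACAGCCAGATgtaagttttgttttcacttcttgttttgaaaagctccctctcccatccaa
PCBP2 exon of 39 bases: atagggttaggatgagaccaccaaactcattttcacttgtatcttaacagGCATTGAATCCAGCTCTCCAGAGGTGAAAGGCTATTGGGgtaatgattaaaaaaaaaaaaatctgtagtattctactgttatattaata
HNRNPK exon of 72 bases: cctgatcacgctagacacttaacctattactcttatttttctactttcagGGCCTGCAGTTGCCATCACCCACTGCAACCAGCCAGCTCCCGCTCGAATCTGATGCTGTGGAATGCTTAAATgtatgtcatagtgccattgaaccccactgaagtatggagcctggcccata
The letters CCC were searched on the gene's strand in the 50 bases before each exon, with overlapping runs not counted again. They occur once before the 93-base exon and not before the 42-base, 39-base or 72-base exon, while 43.0% of the 25151 different exons in the inclusion test hold them in that window. Cytosine makes up 20% of the 50 bases before the 39-base exon, which is also the median over all those exons. It makes up 26%, 16% and 28% before the 93-base, 42-base and 72-base exons. In the 50 bases after the exon, CCC occurs 2 times for the 42-base exon and 2 times for the 72-base exon. It does not occur there for the 93-base or the 39-base exon. Of the 25151 exons, 37.7% hold CCC in the window after them.

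PCBP1, the induced gene (chr2:70087477-70089203, plus strand), checks the labels. Its level was 156, 158 and 163 TPM (a level scaled for transcript length and for the library's total) in the −Dox libraries and 596, 582 and 600 TPM in the +Dox libraries. Every +Dox library stood far above every −Dox library. The log2 fold change was 1.94 ± 0.0551 (SE, n = 3 per group), with an adjusted p of 5.2e-10 in edgeR's quasi-likelihood test over 21045 genes. Of those genes, 15.8% passed an adjusted p under 0.05 in either direction and 8.16% passed it as higher in +Dox, so a call alone is common in this comparison. Reads from the cassette and from the endogenous gene cannot be told apart in these values.

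PCBP2 (chr12:53452102-53481162, plus strand), which like PCBP1 binds cytosine-rich RNA and carries iron, was slightly higher in +Dox. It stood at 180, 177 and 183 TPM in −Dox and at 190, 201 and 192 TPM in +Dox. As CPM, counts scaled by library size and TMM factor without regard to length, it was 237, 250 and 251 against 276, 273 and 276. The groups did not overlap on either scale, which was also true of 33.2% of the tested genes in CPM and 28.5% in TPM. The log2 fold change was 0.16 ± 0.0437 (SE) with an adjusted p of 0.0244 in edgeR. The call was lost without any one of the 6 libraries (adjusted p from 0.0512 to 0.0704), with an offset for transcript length (0.0707), and on the log2 TPM scale in limma (0.124).

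HNRNPK (chr9:83968083-83980631, minus strand) was the most abundant member without Dox. It was measured at 425, 424 and 421 TPM in −Dox and at 394, 401 and 405 TPM in +Dox, where each library was below the lowest −Dox library. In CPM the groups overlapped, with 895, 928 and 898 against 875, 837 and 905. The log2 fold change was -0.06 ± 0.0454 (SE), with an adjusted p of 0.465 in edgeR, which tests counts. On the log2 TPM scale it was -0.08, with an adjusted p of 0.149 in limma, so the lower TPM did not pass either.

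PCBP4 (chr3:51957454-51974016, minus strand), a paralog known as a target of p53, was rare in K562 cells. Its level was 2.32, 2.25 and 1.99 TPM in −Dox and 2.65, 2.75 and 1.83 TPM in +Dox. The third +Dox library was below all the −Dox libraries and the other two were above them. The log2 fold change was 0.31 ± 0.145 (SE), with an adjusted p of 0.185 in edgeR. PCBP3 (chr21:45643694-45942454, plus strand) had 6, 0 and 2 estimated counts in −Dox and 2, 5 and 7 in +Dox, too few to test, and its isoform shares are not interpreted.

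PCBP1-AS1 (chr2:69960104-70103220, minus strand) runs across the PCBP1 locus. It was measured at 15.0, 12.0 and 14.2 TPM in −Dox and at 11.0, 12.5 and 11.8 TPM in +Dox, with overlapping groups. The log2 fold change was -0.11 ± 0.0684 (SE), with an adjusted p of 0.331 in edgeR. Its exons cover 1264 bases of PCBP1, 73.2% of the exon bases of that gene, on the other strand. The strand setting of the quantification is not given in the sources used here, and without strand, reads of the 2 genes in that stretch cannot be told apart.

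**Figure D1:**
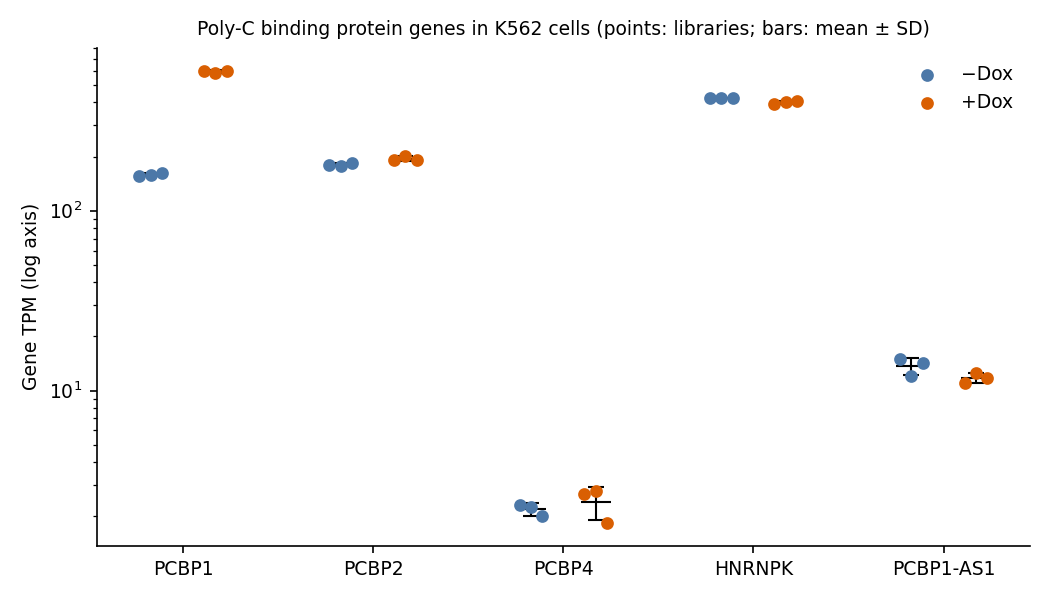
Gene level in TPM on a log axis for each member with measurable expression, by library. Points are libraries (3 −Dox, 3 +Dox) and bars give the mean ± SD. PCBP1 moves from below PCBP2 to above HNRNPK, and the other genes stay close to their −Dox level.

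The order of the family changed with induction. Without Dox the mean levels fell from HNRNPK (424 TPM) through PCBP2 (180 TPM) and PCBP1 (159 TPM) to PCBP4 (2.19 TPM) and PCBP3 (0.0531 TPM). With Dox, PCBP1 (593 TPM) was above HNRNPK (400.1 TPM), PCBP2 (195 TPM), PCBP4 (2.41 TPM) and PCBP3 (0.0495 TPM). In both groups the ranges of all neighbours in the order were apart. PCBP1 messages per PCBP2 message went from 0.867, 0.889 and 0.887 to 3.14, 2.89 and 3.13. PCBP1 made up 20.4%, 20.7% and 21.1% of the summed TPM of the 5 coding members in −Dox, and 50.4%, 49.0% and 50.1% in +Dox. The difference was 29.1 points, with an exact two-sided permutation p of 0.1, the smallest that 3 against 3 libraries can give. The summed TPM of the 4 paralogs was 606 ± 2.31 (SD, n = 3) in −Dox and 597 ± 9.63 (SD, n = 3) in +Dox, with overlapping groups and an exact two-sided permutation p of 0.2. The difference of -8.86 TPM lay between -13.1 TPM (without the second +Dox library) and -3.63 TPM (without the first +Dox library) when 1 library was left out. Over protein-coding transcripts alone the sums were 565 and 557 TPM and did not overlap, with an exact p of 0.1. In CPM the sums were 1157 ± 23.3 (SD, n = 3) and 1152 ± 35.4 (SD, n = 3), with overlapping groups and an exact p of 1.

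Near-identical sequence could blur the paralogs, so their transcripts were compared in words of 31 bases. PCBP1 shared 3 such words with PCBP2, in 1 stretch of 33 bases, out of 1697 in PCBP1. It shared none with PCBP3, PCBP4 or HNRNPK, where the longest common stretches were 17, 14 and 12 bases. Of the 9 named pseudogenes, 8 share a stretch of more than those 33 bases with PCBP2 or HNRNPK, from 35 bases for HNRNPKP5 and 36 for PCBP2P3 to 99 for HNRNPKP4 and 154 for PCBP2P2. The longest stretch of PCBP2P4 is 16 bases. The estimated counts of the pseudogenes were small. PCBP2P1 averaged 13.7 counts in −Dox and 10.3 in +Dox, and the other 8 named pseudogenes averaged under 1 count in both groups. On the same strand, the unnamed gene ENSG00000257379 shares 1097 exon bases with PCBP2, 13.8% of its exon bases, and averaged 337 and 340.1 counts (adjusted p of 0.955 in edgeR). PCBP2-OT1, a noncoding gene that overlaps 93 exon bases of PCBP2, averaged 34.1 and 32.1 counts. ABHD14B, which shares 52 exon bases with PCBP4 on the same strand, averaged 2756 and 3267 counts (log2 fold change 0.25, adjusted p of 0.0067). HNRNPK-AS1, antisense to HNRNPK over 309 exon bases, averaged 47.2 and 54.9 counts. PCBP2 also shares 1494 exon bases with MAP3K12 on the opposite strand, which averaged 554 and 658 counts (log2 fold change 0.24, adjusted p of 0.237 in edgeR).

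PCBP2 has 26 annotated transcripts, and 5 of them carried 74.5% of its TPM. They were PCBP2-222 (22.4% of the gene's mean TPM), PCBP2-202 (18.2%), PCBP2-201 (15.3%), PCBP2-213 (11.9%) and PCBP2-223 (6.68%). PCBP2-222 was measured at 38.2, 41.5 and 42.8 TPM in −Dox and at 42.7, 43.0 and 43.5 TPM in +Dox. PCBP2-202 was measured at 30.7, 33.8 and 32.4 TPM and at 36.0, 37.0 and 35.0 TPM. The −Dox and +Dox values of PCBP2-222 overlapped and those of PCBP2-202 did not. PCBP2-201 and PCBP2-213 overlapped between the groups, with log2 fold changes of 0.16 and 0.11.

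The tested PCBP2 transcripts that skip the 39-base exon were all higher in +Dox, though none passed the edgeR test. PCBP2-223 was at 10.1, 11.2 and 10.5 TPM in −Dox and at 13.4, 14.2 and 15.6 TPM in +Dox. PCBP2-210 was at 4.10, 3.86 and 3.62 TPM in −Dox and at 7.02, 6.44 and 6.06 TPM in +Dox. PCBP2-206 was at 1.85, 2.09 and 1.57 TPM in −Dox and at 2.92, 3.99 and 2.095 TPM in +Dox. In these 3 transcripts the lowest +Dox value exceeded the highest −Dox value. Such a gap, in one direction or the other, was found for 17.7% of the 86178 transcripts tested. Their log2 fold changes were 0.50, 0.82 and 0.76, with adjusted p-values of 0.184, 0.0654 and 0.390 in edgeR. DESeq2 gave adjusted p-values of 0.00029, 6.7e-14 and 0.0391 for the same 3, and it called 5876 transcripts in all against 176 in edgeR. These were the only PCBP2 transcripts tested that join the neighbouring exons without the 39-base exon. The 10 tested transcripts that hold it had a median log2 fold change of 0.14, with 7 higher and 3 lower. For 3 of them the groups did not overlap: PCBP2-202 was higher, and PCBP2-215 (4.85 to 3.29 mean TPM) and a rarer transcript (1.71 to 1.22 mean TPM) were lower in +Dox.

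**Figure D2:**
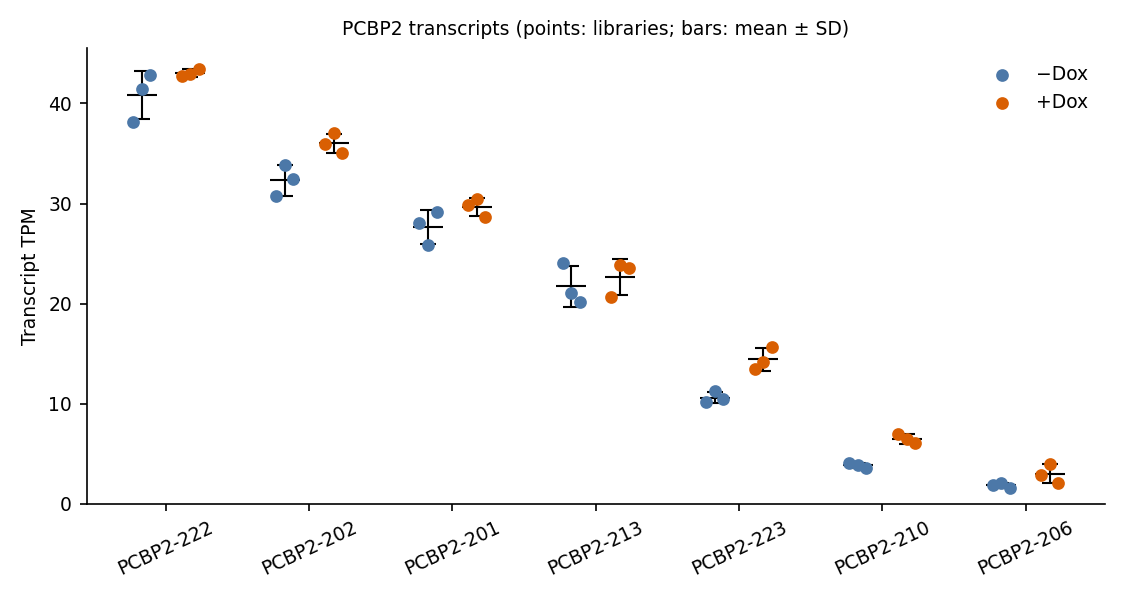
Level in TPM of the PCBP2 transcripts with at least 5% of the gene's mean TPM, and of PCBP2-210 and PCBP2-206, by library. Points are libraries and bars give the mean ± SD. PCBP2-223, PCBP2-210 and PCBP2-206, which lack the 39-base exon, have all +Dox points above all −Dox points, as has PCBP2-202.

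Across the family, edgeR called 1 of the 77 transcripts tested, PCBP1-201, the single transcript of PCBP1 (log2 fold change 1.96, adjusted p of 0.0021). Without the second −Dox library that adjusted p was 0.0531, and with a block for replicate number it was 0.442. Over all transcripts 0.204% passed. In transcript shares, the percentage of a gene's TPM on each transcript, 0 of the 46 tested shares of members passed in limma. At an unadjusted p under 0.05 lay 2 shares of PCBP2, 1 of HNRNPK and 2 of PCBP1-AS1, and 4343 of all shares (7.04%). Over all 61652 shares 0.122% passed.

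Inclusion of an exon was then expressed as percent spliced in (PSI), the TPM of transcripts that hold the exon as a percentage of those that hold it or skip it between the same neighbours. The 39-base exon of PCBP2 had a PSI of 85.2%, 83.9% and 85.8% in −Dox and of 80.2%, 80.3% and 79.9% in +Dox. All +Dox libraries were lower, and the difference was -4.81 points. The skipping transcripts summed to 16.1, 17.2 and 15.6 TPM in −Dox and to 23.4, 24.6 and 23.8 TPM in +Dox, while transcripts that hold the exon between the same neighbours summed to 92.6, 89.3 and 94.5 TPM and to 94.4, 100.5 and 94.9 TPM. The log2 ratio of the 2 forms changed by -0.48 ± 0.199 (SE), with an unadjusted p of 0.0516 and an adjusted p of 0.709 in limma, so the difference did not pass the test. Groups that do not overlap in PSI were found for 10.4% of 26762 exon events. Counting every transcript with the exon as included, an alternative chosen after seeing the data, gave 89.3%, 88.6% and 90.0% in −Dox and 85.8%, 85.7% and 85.7% in +Dox, a difference of -3.57 points.

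The other coding exons of PCBP2 differed less between the groups. The 93-base exon was used by about as many transcripts as skipped it, with a PSI of 53.4%, 56.5% and 56.5% in −Dox and 55.7%, 54.3% and 54.7% in +Dox. Where the 93-base exon was absent, the 42-base exon had a PSI of 84.9%, 85.2% and 81.2% in −Dox and 86.3%, 87.2% and 88.3% in +Dox, without overlap and with an adjusted p of 0.747 in limma. Where the 93-base exon was present, the 42-base exon had a PSI from 97.4% to 98.4% over all 6 libraries. The 24-base exon (chr12:53455347-53455370) lay above 99.8% and the 95-base exon (chr12:53460331-53460425) below 1.5% in every library.

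HNRNPK has 34 annotated transcripts, and 4 carried 87.5% of its TPM. HNRNPK-202 (45.5% of the mean TPM) was at 199, 195 and 192 TPM in −Dox and at 182, 178 and 177 TPM in +Dox. HNRNPK-205 (25.8%) was at 116, 111 and 114 TPM in −Dox and at 99.4, 103 and 95.3 TPM in +Dox. Both were lower in all +Dox libraries, with log2 fold changes of -0.06 and -0.13 and adjusted p-values of 0.714 and 0.193 in edgeR; DESeq2 gave 8.1e-10 for HNRNPK-205. HNRNPK-231 (7.496%) went the other way, from 20.5, 15.5 and 31.8 TPM in −Dox to 29.3, 42.7 and 45.5 TPM in +Dox, with overlapping groups, a log2 fold change of 0.85 and an adjusted p of 0.448 in edgeR. HNRNPK-205 and HNRNPK-231 are annotated with a coding sequence of the same length, 1392 bases, and HNRNPK-202 with one of 1389 bases.

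Grouped by identical coding sequence, the shares of HNRNPK overlapped between the groups. The coding sequence led by HNRNPK-202 took 46.9%, 46.3% and 45.6% of the gene's TPM in −Dox and 46.5%, 44.6% and 44.05% in +Dox. The one led by HNRNPK-205, which HNRNPK-231 shares, took 33.5%, 31.5% and 36.6% in −Dox and 34.9%, 37.3% and 36.6% in +Dox. The 72-base exon, whose absence marks HNRNPK-206, had a PSI of 90.0%, 89.9% and 91.7% in −Dox and 91.4%, 91.2% and 91.6% in +Dox (adjusted p of 0.893 in limma).

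**Figure D3:**
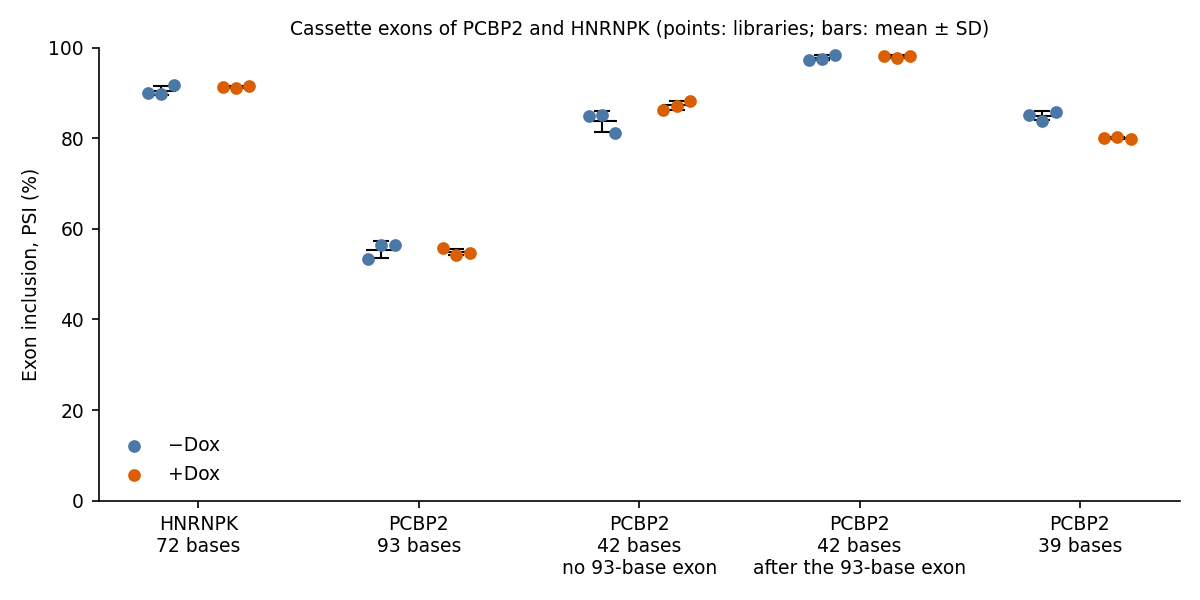
PSI in percent of the cassette exons of HNRNPK and PCBP2 by library, with the 42-base exon of PCBP2 shown apart for transcripts without and with the 93-base exon. Points are libraries and bars give the mean ± SD. The 39-base exon of PCBP2 sits at 83.9% to 85.8% in −Dox and at 79.9% to 80.3% in +Dox, and the 93-base exon near the middle of the axis in both.

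PCBP4 spread its few reads over transcripts that varied between libraries. PCBP4-202 held 50.5% of the mean TPM and was at 0.971, 1.105 and 1.29 TPM in −Dox and 1.54, 1.26 and 0.800 TPM in +Dox. PCBP4-205 (13.9%), PCBP4-210 (7.11%) and PCBP4-218 (5.07%) also overlapped between the groups. None of its 6 tested transcripts passed. Exon events of the members numbered 41 in the test, 24 of them in PCBP1-AS1, 7 in PCBP2, 5 in HNRNPK and 5 in PCBP4, and 0 passed an adjusted p under 0.05 in limma. Of the 26825 events of all genes, 0% passed with a difference over 5 PSI points. An unadjusted p below 0.05 was found for 1897, and limma on estimated counts called 12. These PSI values come from levels of annotated transcripts and not from reads over splice junctions, so 0 calls do not show that exon use was unchanged. With rMATS on mapped reads, the paper reported many skipped exons that changed with PCBP1 overexpression, in both directions.

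Protein-coding transcripts held 86.5% ± 0.871 (SD, n = 3) of PCBP2 TPM in −Dox and 87.5% ± 1.51 in +Dox. For HNRNPK the share was 96.2% ± 0.222 and 96.0% ± 0.551, and for PCBP4 89.0% ± 6.76 and 88.2% ± 3.20. All 3 overlapped between the groups, with exact two-sided permutation p-values of 0.4, 0.8 and 1 (1 each when adjusted over the 3 genes). Transcripts marked for nonsense-mediated decay held 2.93%, 2.84% and 2.83% of PCBP2 TPM in −Dox and 2.24%, 2.68% and 2.04% in +Dox. The share was 3.88%, 2.34% and 7.998% against 0.900%, 0.688% and 0.430% for PCBP4, and 0.275%, 0.272% and 0.236% against 0.595%, 0.361% and 0.315% for HNRNPK. The PCBP4 values rest on 1 transcript with 1.43 to 25.3 estimated counts per library. The events that separate these transcripts in PCBP4 (inclusion of a 340-base exon) and HNRNPK (skipping of a 44-base exon) were in the inclusion test, with adjusted p-values of 0.678 and 0.722 in limma. PCBP1-AS1 had 296 annotated transcripts, of which 28 had enough counts to test, and 2 with at least 5% of its TPM, led by PCBP1-AS1-333 (16.5%), held 25.8% of it.

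The other genes of the pathway were taken from lists chosen by name. Of 30 tested genes for other proteins with KH domains, 1 rose and 6 fell, with a median log2 fold change of -0.07 against 0.0061 over all genes. TDRKH, a piRNA pathway factor, rose by 0.50. PNO1, a ribosome assembly factor, fell by 0.29, PNPT1, a mitochondrial RNA nuclease, by 0.26, and EXOSC3, an exosome subunit, by 0.27 (adjusted p of 0.00050, 0.0014, 0.0026 and 0.0049 in edgeR). Of 25 other hnRNP genes 0 rose and 8 fell, with a median of -0.10. The 4 with the smallest p were HNRNPF, a splicing factor for G-rich sites (-0.25), SYNCRIP, known as hnRNP Q (-0.22), RBMX, known as hnRNP G (-0.20) and HNRNPDL (-0.19), with adjusted p-values from 0.0018 to 0.0075 in edgeR. HNRNPA1, an abundant splicing repressor, was at 0.01 on the log2 scale (adjusted p of 0.917). The shares called, 23.3% and 32%, compare with 15.8% of all genes. That 15.8% was not matched to the lists by expression level, and small changes are called more readily in abundant genes. Whether level plays a part in these shares, or in those of the lists that follow, was not tested. The count of lower hnRNP genes dropped to 5 without the second or the third −Dox library, and to 2 with a block for replicate number. That of lower KH domain genes was 3 without the third +Dox library and between 4 and 6 without each of the others.

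Messages known to be bound by poly-C binding proteins gave 0 higher and 3 lower calls of 10 tested (30% against 15.8% of all genes), with a median of -0.14. MYC fell by 0.69 and PTP4A3, a phosphatase, by 0.69, and CD44, a cell adhesion receptor, by 1.16. HBA2, an alpha-globin gene, differed by -0.22 on the log2 scale (adjusted p of 0.107) and its neighbour HBA1 by 0.0013 (adjusted p of 0.994); these near-identical copies share reads and are uncertain one by one. Of 11 tested iron chaperone partners and clients 3 rose and 2 fell (45.5% against 15.8% of all genes), with a median of -0.14. NCOA4, the receptor for ferritin breakdown, rose by 0.34, FTH1, the ferritin heavy chain, by 0.27 and SLC11A2, an iron importer, by 0.26. FTL, the ferritin light chain, went the other way with -0.18 and was not called (adjusted p of 0.0701 in edgeR). GLRX3, a glutaredoxin that partners in iron-sulfur cluster delivery, fell by 0.20 and SLC40A1, the iron exporter ferroportin, by 0.16. Those 2 lower calls became 4 without the first −Dox library, 1 without the second −Dox or the third +Dox library, and 0 without the third −Dox, the first +Dox or the second +Dox library. The lower calls became 0 with the transcript length offset, 5 with no filter on counts and 3 in DESeq2. The 3 higher calls became 2 without the first +Dox library and stayed at 3 under all other alternatives.

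**Figure D4:**
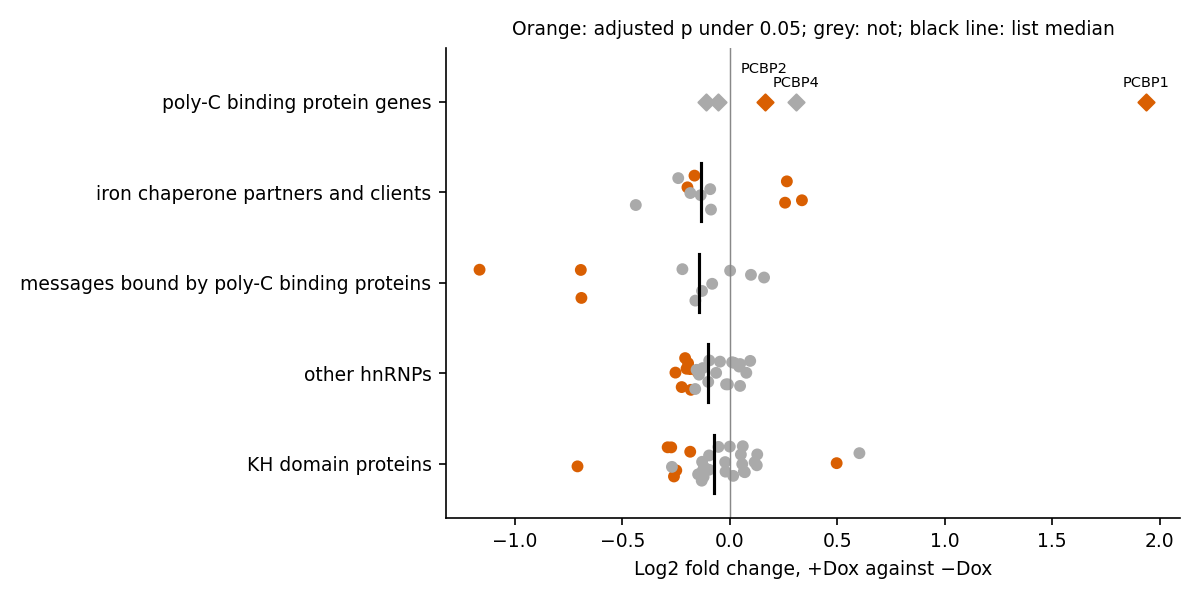
Log2 fold change (+Dox against −Dox) of the tested members (diamonds) and of every tested gene in the 4 lists (circles), with a black line at each list's median. Orange marks an adjusted p under 0.05 in edgeR. PCBP1 stands alone at 1.94 and the other members lie between -0.11 and 0.31.

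The genes most like each member over the 6 libraries were found by Pearson's r of log2 CPM among 9289 genes with a mean of at least 10 CPM; r is a description over 6 libraries that share a 2-group design. For PCBP1 they were NRSN2, EPOR and RHCE (r = 0.999, 0.999 and 0.998). For PCBP2 they were LRRC4B, ILK and CST3 (r = 0.999, 0.998 and 0.997). For PCBP4 they were MIB2, PLPPR2 and CNDP2 (r = 0.991, 0.989 and 0.987), and for HNRNPK the unnamed gene ENSG00000280893, MEMO1 and PSMA3 (r = 0.998, 0.988 and 0.988).

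Markers of the cell line were present in all libraries, led by HBG2 with 9789 TPM in −Dox and 9999.9 TPM in +Dox. Erythroid genes moved with Dox: KLF1 had a log2 fold change of 0.45, TAL1 0.44, TFRC -0.34 and HBZ -0.40, all with an adjusted p under 0.05 in edgeR. Of the 9 markers of other cells, MS4A1 was at 0 in every library, CD3E had at most a mean of 2.33 counts, and KRT8 (203 and 183 TPM), CD3D (49.9 and 44.2 TPM) and EPCAM (36.7 and 32.6 TPM) were detected. None of the 7 tested had an adjusted p under 0.05, the smallest being 0.155 for EPCAM. The part of these markers in the values of the family was not tested.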

How the data were processed

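RNA was selected for polyA by the study and sequenced as paired ends, and the authors quantified transcripts with Salmon 1.10.2, named in the submitters' processing notes with hg38. The deposited values are an estimated count per transcript, not scaled for depth or length, and TPM, which the authors' tool scales for effective length and library; replicates were not pooled. Salmon's index, strand and bias settings are not given in the sources used here.

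Of 252045 transcripts, 251612 matched GENCODE 44 (GRCh38) and were summed to 62252 genes; 433 did not match and were left out. Libraries held 70905656 to 84177316 estimated counts. No pair of replicates agreed within sampling noise (mean chi-square per gene of at least 8.16). Counts were rounded and tested with edgeR 4.0.16 (quasi-likelihood, TMM) in R 4.3.3 where the mean was above 10, and called at an adjusted p under 0.05 (Benjamini-Hochberg over all features). Shares and exon inclusion were tested with limma 3.58.1 on log2 ratios of TPM with 0.1 TPM added to each form, for features of at least 1 TPM, and single values with exact permutation. Salmon's uncertainty in splitting reads between isoforms is not in the deposited values and so in no test. Code was tested on simulated data. DESeq2 1.42.0 and the other alternatives are in the closing section.

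Genes and lists were chosen with earlier results of these data known. Named or counted were the members, transcripts with at least 5% of a member's TPM or called, the skipped exons, pseudogenes, overlapping genes with over 10 counts, the 3 genes most like each member, and for each of 4 lists up to 4 genes by p. PCBP2-206, PCBP2-210, PCBP2-215, HNRNPA1, HBA1, SLC40A1 and FTL were named after their values were seen.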

Additional observations from a re-analysis of the deposited data

How the results depend on the processing

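PCBP1 kept its call under all 13 alternatives at the gene level (log2 fold change 1.90 to 1.98), and PCBP4, HNRNPK and PCBP1-AS1 kept their direction and stayed uncalled. Log2 fold changes ran from 0.11 to 0.42 for PCBP4, from -0.083 to -0.027 for HNRNPK and from -0.22 to -0.0745 for PCBP1-AS1. PCBP2 kept its direction, but its call was lost with the transcript length offset (log2 fold change 0.14), with limma on log2 TPM (0.11), and without any 1 of the 6 libraries (0.13 to 0.18). The cause was not tested. In the lists, no median changed sign under any alternative. The medians lay between -0.11 and -0.031 for the KH domain genes and between -0.15 and -0.095 for the other hnRNPs. They lay between -0.20 and -0.10 for the bound messages and between -0.18 and -0.094 for the iron partners. Lower calls among the iron partners went from 2 to 0 with the length offset and to 5 with no filter on counts. Those among the KH domain genes went from 6 to 9 in DESeq2 and to 4 on log2 TPM. Of the 42 tested transcripts of PCBP2 and HNRNPK, DESeq2 called 7 that edgeR did not, PCBP2-201, PCBP2-202, PCBP2-206, PCBP2-210, PCBP2-223, HNRNPK-205 and HNRNPK-231. Among those of PCBP1-AS1 it called 1 that edgeR did not, PCBP1-AS1-386.

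Counts of calls moved more than those of single genes. Genes past 1 on the log2 scale went from 308 to 515 with no filter on counts, genes at an adjusted p under 0.05 from 3333 to 1883 with the length offset and to 1634 on log2 TPM, and transcripts from 176 to 5876 in DESeq2 and to between 2 and 4 without 1 library. Shares went from 75 to 14 with 1 TPM added, to 164 on estimated counts, and to between 38 and 112 without 1 library, and exon events from 0 to 12 on estimated counts. The PSI difference of the 39-base PCBP2 exon went from -4.81 to -3.57 points with every transcript that holds it counted, an alternative chosen after seeing the data.

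The replicate numbers are shared by the groups, but same-numbered libraries did not deviate together over the tested genes (correlations 0.0075, -0.0605 and -0.0029). Whether they shared a culture or a preparation was not tested, and the labels do not say. With a replicate block PCBP2 stood at 0.16 with an adjusted p of 0.105 in edgeR, and 0 transcripts and 0 shares were called, PCBP1-201 included (adjusted p of 0.442). Lower calls among the other hnRNPs went from 8 to 2, and among the iron partners from 2 to 1. No other call on a member changed.

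Sign changes, written as ranges over the fits without 1 library, were found where no value had passed a test. The protein-coding share ranged from -4.60 to 1.86 points for PCBP4 and from -0.458 to 0.0444 for HNRNPK (0.0207 with nonsense-mediated decay counted as coding). On the log2 scale the share of PCBP2-201 ranged from -0.055 to 0.019, of PCBP2-213 from -0.13 to 0.032, of PCBP4-202 from -0.41 to 0.21 and of PCBP4-205 from -0.22 to 0.66, and the level of PCBP4-202 from -0.092 to 0.37. Inclusion ratios ranged from -0.13 to 1.03 for the PCBP4 exon of 129 bases (-0.29 on estimated counts), from -0.30 to 0.14 for that of 146 bases, from -0.18 to 0.70 for that of 148 bases and from -0.26 to 0.28 for that of 83 bases (0.84 on estimated counts). For HNRNPK they ranged from -1.06 to 0.11 for the 80-base exon and from -0.27 to 0.64 for the 130-base exon. For PCBP2 they ranged from -0.65 to 0.17 for the 24-base exon (0.032 with 1 TPM added), and for the 93-base exon from -0.090 to 0.00087 before the 42-base exon and from -0.084 to 0.42 when that is skipped.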
